A study of Mus musculus with 1536 samples.

Results

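The expression of 8 genes of nitric oxide (NO) and cyclic GMP signalling was examined in single lymphatic endothelial cells (LECs) of the adult mouse nasopharynx. The genes were *Nos3*, *Gucy1a3*, *Gucy1b3*, *Cav1*, *Cav2*, *S1pr1*, *Prkg1* and *Pde5a*, taken by symbol from the 23168 rows of the matrix. LECs were sorted as CD31+PDPN+ cells from the nasopharyngeal mucosa of 30 c57bl/6 mice of both sexes (aged 10–12 weeks), which carried no treatment, and each well was made into a Smart-seq3 library, a full-length method for single cells. The tissue was pooled before sorting and no label ties a cell to a mouse or plate, so the deposited cells form 1 sample, and differences between them are described without a test. The cells were compared by *Stab2*, which encodes a scavenger receptor for hyaluronan, and by *Fndc1*, which encodes a protein with fibronectin type III domains. Aged mice were not analysed here.

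Endothelial NO synthase, the product of *Nos3*, makes NO from arginine. NO diffuses to neighbouring cells and binds soluble guanylate cyclase, a heterodimer of an α subunit (*Gucy1a3*) and a β subunit (*Gucy1b3*), which then forms cyclic GMP. Cyclic GMP activates the protein kinase encoded by *Prkg1* and is broken down by the phosphodiesterase encoded by *Pde5a*. Caveolins (*Cav1*, *Cav2*) coat caveolae, where caveolin-1 holds the synthase inactive, and the sphingosine 1-phosphate receptor encoded by *S1pr1* can activate the synthase through the kinase Akt. In collecting lymphatics, NO from LECs relaxes the smooth muscle of the wall. The study applied NO donors to the deep cervical lymphatics downstream of the nasopharyngeal lymphatics. Those vessels had smooth muscle, whereas the study saw none on the nasopharyngeal lymphatic plexus.

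On GRCm38, the build used by the authors, *Nos3* lies on chromosome 5 at 24364810–24384474. Its exons overlap those of the antisense gene *Gm15587* and of *Atg9b*, also on the other strand. Use of strand in the counting is not stated, so reads of these genes cannot be told apart there. The cyclase subunits, listed in GENCODE M21 as *Gucy1a1* and *Gucy1b1*, are neighbours on the minus strand of chromosome 3, at 82092427–82145789 and 82032006–82074689, with 17737 bases and 0 annotated genes between them. *Cav2* and *Cav1* are neighbours on the plus strand of chromosome 6, at 17281185–17289115 and 17306335–17341452, with 17219 bases and 0 genes between them. *S1pr1* (115710433–115715072) and *Pde5a* (122728947–122859374) lie on chromosome 3 and *Prkg1* (30564489–31765033) on chromosome 19.

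The 250 bases before the RefSeq start (GRCm38.p6) are shown for *Gucy1b3*, which was among the genes most like *Gucy1a3* across cells, and for the neighbours *Cav1* and *Cav2*, of which *Cav1* was the gene most like *Cav2*. They run 5′ to 3′ on the strand of the gene from chr3:82074712-82074961 (minus), chr6:17306085-17306334 (plus) and chr6:17280935-17281184 (plus). Capitals mark matches on either strand to GGGCGG (a GC box), CCAAT (the motif bound by NF-Y), TATAAA (the motif bound by TBP), CACGTG (an E box) or GGAAGT (an Ets motif), and no matches overlap here.
Gucy1b3: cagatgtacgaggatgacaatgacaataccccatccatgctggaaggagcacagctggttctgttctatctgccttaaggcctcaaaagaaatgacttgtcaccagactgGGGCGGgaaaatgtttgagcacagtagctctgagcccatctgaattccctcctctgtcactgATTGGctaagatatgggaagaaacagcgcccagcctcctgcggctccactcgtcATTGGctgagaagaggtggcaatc
Cav1: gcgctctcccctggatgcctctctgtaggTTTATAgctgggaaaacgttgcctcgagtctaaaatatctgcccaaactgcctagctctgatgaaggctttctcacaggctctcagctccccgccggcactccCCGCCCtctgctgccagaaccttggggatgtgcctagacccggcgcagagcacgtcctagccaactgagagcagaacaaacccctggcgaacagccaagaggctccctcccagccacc
Cav2: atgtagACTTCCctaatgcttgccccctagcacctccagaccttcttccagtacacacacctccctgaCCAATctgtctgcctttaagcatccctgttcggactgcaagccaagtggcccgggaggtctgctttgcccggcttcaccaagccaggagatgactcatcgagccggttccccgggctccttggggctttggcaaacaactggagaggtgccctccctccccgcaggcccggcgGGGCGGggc
The *Gucy1b3* window held GGGCGG at 140 bases before the start and CCAAT on the other strand at 78 and 24. The *Cav1* window held TATAAA followed by GGGCGG, both on the other strand. The *Cav2* window held GGAAGT on the other strand, then CCAAT, and GGGCGG at 9 bases before the start. These letters are common, since of 32851 windows of 250 bases before RefSeq starts 32.7% held GGGCGG, 33.8% CCAAT, 12.4% TATAAA, 6.02% CACGTG and 19.7% GGAAGT. GC content was 51.2% for *Gucy1b3*, 59.6% for *Cav1* and 62% for *Cav2*, against a median of 52.4% over all windows.

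Reads per cell ranged from 7433 to 3524358 (median 350746) and genes per cell from 2001 to 7236 (median 4186.5). A gene was called found in a cell with at least 1 read, and cells were also thinned to 20000 reads each, leaving out 51 shallower cells, so that shares could be set side by side at 1 depth. All 8 LEC markers examined were found in most cells, led by *Mmrn1* (100% of cells), with *Flt4* in 99.8% and *Prox1*, the transcription factor that specifies LECs, in 97.7%. No cell had at least 3 of 8 smooth muscle and pericyte markers, and *Acta2*, the most often found of them, was in 2.49% of cells. *Cnn1* and *Des* were at 0 in every cell, from which no lack of expression is read. They could not add to the count, which could therefore miss such cells. Intervals below are exact 95% Clopper–Pearson intervals, which cover counting error only and neither differences between mice nor amplification.

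*Nos3* was found in 51.8% of cells (95% interval 48.3 to 55.2), at a mean of 0.398 ± 0.555 on the scale of the matrix, ln(1 + reads per 10000), with the SD over cells. Values ran from 0 through a median of 0.0138 to 2.57, and 17% of cells had values above 1. At 20000 reads per cell the gene was found in 37% (33.7 to 40.5). In the cells where it was found, the median value was 0.742.

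The subunits of the NO receptor were found less often. *Gucy1a3* was found in 22.4% of cells (19.7 to 25.4) at a mean of 0.155 ± 0.411 (highest value 2.81), and *Gucy1b3* in 33.1% (30 to 36.4) at 0.267 ± 0.524 (highest value 2.63). After thinning the shares were 13.7% (11.3 to 16.2) and 22.6% (19.8 to 25.7). Their reads were unevenly spread, since the 42 cells (5%) with most reads of a gene held 83.8% of the reads of *Gucy1a3* and 67.3% of those of *Gucy1b3*, against 47.2% for *Nos3* and 28.4% for *Cav1*.

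The caveolins and *S1pr1* were found in nearly all LECs. *Cav1* was found in 96.1% of cells (94.5 to 97.3) at a mean of 1.96 ± 0.912 and a median of 2.14, *Cav2* in 89.5% (87.3 to 91.5) at 1.30 ± 0.806, and *S1pr1* in 94.5% (92.8 to 96) at 1.37 ± 0.705. At 20000 reads the shares were still 91.2%, 82.2% and 88.6%. Expression per length, as mean reads per 10000 per kilobase of exon, was 2.60 for *Cav1*, 1.30 for *S1pr1* and 1.18 for *Cav2*, each above 97% of the 22367 genes with a length. On that same scale *Nos3* reached 0.193, *Gucy1b3* 0.149, *Gucy1a3* 0.0482 and *Prkg1* 0.0138. As cells are not replicates, neighbours in this order were not tested against each other, and the SDs over cells of *S1pr1* and *Cav2* overlap on the ln scale.

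Downstream of the cyclase, reads were sparse. *Prkg1* was found in 31.5% of cells (28.3 to 34.7), but with a median of 10 reads in those cells, a mean of 0.102 ± 0.241 and only 15 cells above a value of 1. At 20000 reads it was found in 14.5% (12.2 to 17.2). *Pde5a* was listed at 0 in all cells. The rows at 0 throughout also include *Med10*, a subunit of the Mediator complex that cells in general use, so no lack of expression is read from the zeros of *Pde5a*.

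**Figure D1:**
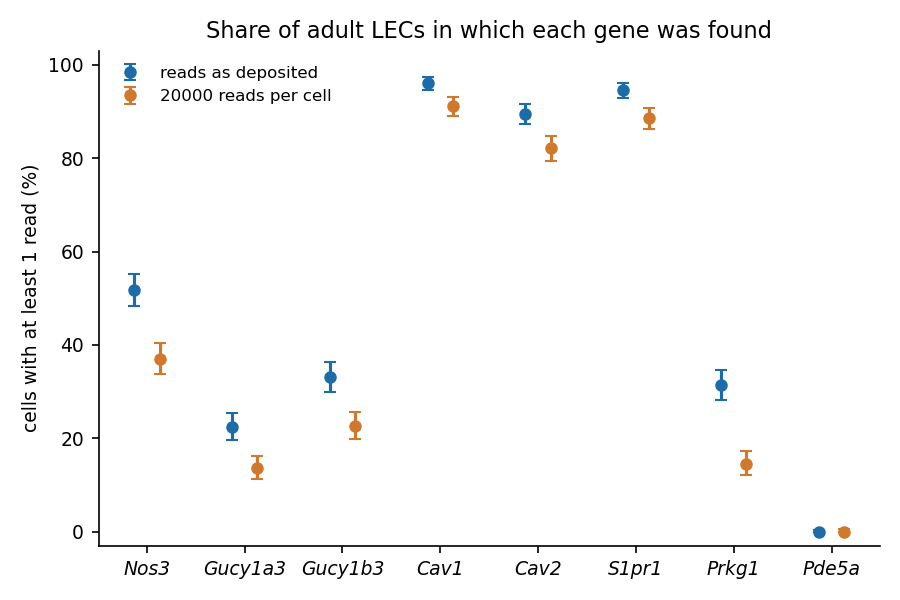
Share of adult LECs with at least 1 read of each gene (y axis, %), for the reads as deposited (blue) and after thinning to 20000 reads per cell (orange), with exact 95% intervals. *Cav1*, *Cav2* and *S1pr1* stayed above 80%, *Nos3* went from 51.8% to 37% and *Pde5a* was listed at 0.

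Shares of the low genes moved with depth. With the cells ranked by total reads into 4 groups of like size (median reads 37162, 185426, 574867 and 1284307), the share with *Prkg1* went from 10.9% (7.04 to 15.9) through 24.3% and 43.3% to 47.4% (40.5 to 54.4). For *Gucy1b3* it went from 23.7% to 45.5% and for *Gucy1a3* from 13.7% to 30.8% between the groups with fewest and most reads. *Nos3* was in 37.4%, 55.2%, 51% and 63.5% of the groups in turn, and *Cav1* in 91.9% of the first and 98.6% of the last. The mean level of *Nos3* was 0.782, 1.01, 0.689 and 0.711 reads per 10000 in these groups, with no steady rise. That of *Gucy1b3* rose in each step (0.519, 0.553, 0.597 and 0.675). *Gucy1a3* had 0.333, 0.277, 0.290 and 0.444, highest in the group with most reads.

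**Figure D2:**
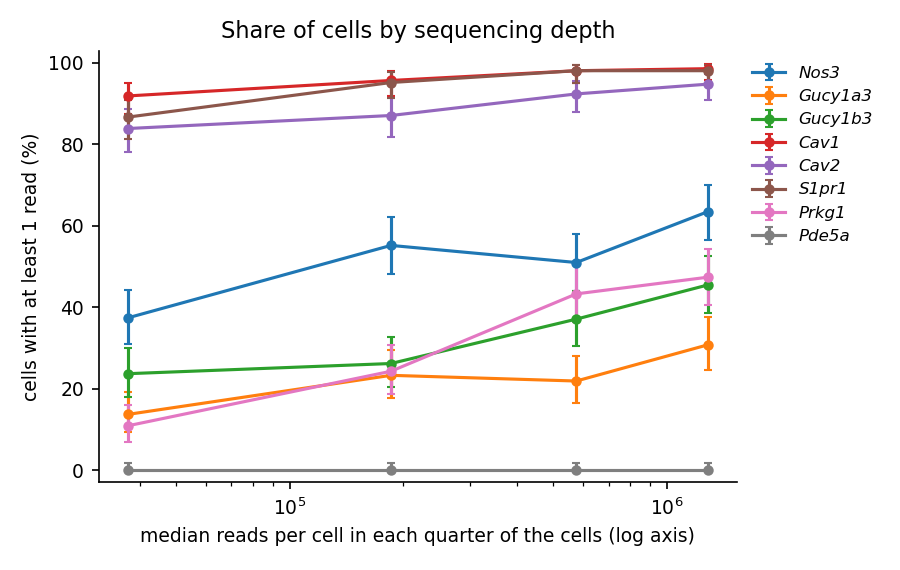
Share of cells with at least 1 read (y axis, %) in 4 groups of adult LECs ranked by total reads, placed at the median reads per cell of the group (x axis, log scale), with exact 95% intervals. *Prkg1* rose from 10.9% to 47.4%, whereas *Cav1*, *Cav2* and *S1pr1* were above 80% in each group.

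The LECs were then divided by *Stab2* and by *Fndc1* at a deposited value of 1, to ask whether the genes differed between kinds of LEC. *Stab2* was above 1 in 31.2% of cells and *Fndc1* in 16.9%, with 11 cells in both groups and 53.2% in neither. The divisions are ranges and not cell types, since 60 cells for *Stab2* and 50 for *Fndc1* lay within 0.25 of the value of 1. Median reads were 368560 in *Stab2*-high cells and 350281 in the others, and 460124 in *Fndc1*-high cells and 335356 in the others. Levels were compared on the log2 scale after a pseudocount of 0.1 was added to mean reads per 10000, which understates the difference of low genes, and a ratio of at least 2-fold was the size named. With 1 sample, these ratios describe these cells and have no replicate error.

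In *Stab2*-high LECs, *Nos3*, both cyclase subunits and *Cav1* were at least 2-fold lower than in the other cells. This held for 4 of the 7 members found in at least 5% of cells and none was at least 2-fold higher, where of all 11573 genes tested 1.43% were that much lower and 1.11% higher. The median log2 ratio was −1.31 over the 7 members and 0.03 over all genes tested. The members were chosen with earlier results of these data known, so in either division this contrast is a description and not a test.

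*Nos3* had a mean of 0.197 reads per 10000 in *Stab2*-high cells and 1.07 in the others (log2 ratio −1.98). On the ln scale, *Stab2*-high cells ran from 0 through a median of 0 to 2.08 and the others from 0 through 0.329 to 2.57, so the ranges overlapped. The gene was found in 24.3% of *Stab2*-high cells (19.3 to 30) and 64.2% of the others (60.2 to 68.2), and after thinning in 11.8% (8.04 to 16.5) and 48.4% (44.2 to 52.7). The antisense *Gm15587*, whose exons share bases with *Nos3*, was found in 3.42% of *Stab2*-high cells and 13.6% of the others, and *Atg9b* in 3.04% and 6.74%. The part of shared reads in the *Nos3* ratio was not tested.

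The NO receptor followed the same direction. *Gucy1a3* had means of 0.0404 and 0.471 reads per 10000 (log2 ratio −2.02), and *Gucy1b3* had 0.118 and 0.799 (log2 ratio −2.04). *Gucy1a3* was found in 7.22% of *Stab2*-high cells (4.41 to 11.1) and 29.4% of the others (25.7 to 33.3), and *Gucy1b3* in 14.4% (10.4 to 19.3) and 41.6% (37.6 to 45.8). After thinning these shares were 2.44% and 18.7% for *Gucy1a3*, and 6.5% and 29.9% for *Gucy1b3*. The medians were 0 in both groups for both subunits. With a pseudocount of 1, above the mean of each of these 3 genes in *Stab2*-high cells, the log2 ratios were −0.79 for *Nos3*, −0.50 for *Gucy1a3* and −0.69 for *Gucy1b3*, all under the 2-fold size. With a pseudocount of 0.1 and against cells with neither marker above 1, the ratio was −1.26 for *Gucy1a3* and −1.62 for *Gucy1b3*.

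*Cav1* remained found in 91.3% of *Stab2*-high cells (87.2 to 94.4) and 98.3% of the others, but its mean was 4.40 reads per 10000 against 11 (log2 ratio −1.31). Its ln values had a median of 1.36 in *Stab2*-high cells (0 to 3.34) and 2.38 in the others (0 to 3.81). *Cav2* was at 2.96 and 4.39 reads per 10000 (log2 ratio −0.55), under the 2-fold size. *S1pr1* was level between the groups, at 3.95 reads per 10000 in both, as was *Prkg1* at 0.149 and 0.151. When all cells with any *Stab2* read were set against those without, the log2 ratios were −0.99 for *Nos3*, −1.46 for *Gucy1a3*, −0.78 for *Gucy1b3* and −0.62 for *Cav1*.

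In *Fndc1*-high LECs, the cyclase subunits were higher while *Nos3* was not. Of the 7 members, 2 were at least 2-fold higher and none lower, where 0.449% of all genes tested were that much higher and 0.769% lower, and the median log2 ratios were 0.30 over the members and −0.02 over all genes. *Gucy1a3* had means of 1.17 and 0.166 reads per 10000 (log2 ratio 2.26). It was found in 52.1% of *Fndc1*-high cells (43.6 to 60.6) and 16.4% of the others (13.8 to 19.4), or 37% (28.9 to 45.8) and 8.84% (6.78 to 11.3) after thinning.

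*Gucy1b3* had means of 1.52 and 0.397 reads per 10000 in *Fndc1*-high and other cells (log2 ratio 1.70). It was found in 61.3% (52.7 to 69.3) and 27.4% (24.2 to 30.9), or 47.4% and 17.5% after thinning. On the ln scale *Gucy1a3* ran from 0 through a median of 0.0212 to 2.81 in *Fndc1*-high cells and *Gucy1b3* from 0 through 0.166 to 2.63, while both medians were 0 in the others, so the ranges overlapped. With a pseudocount of 1 the log2 ratios were 0.90 and 0.85, under the 2-fold size.

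*Nos3* was at 0.691 reads per 10000 in *Fndc1*-high cells and 0.820 in the others (log2 ratio −0.22), and was found in 50.7% (42.2 to 59.2) and 52% (48.2 to 55.8). Against cells with neither marker above 1 its log2 ratio was −0.68, under the 2-fold size, and that of *Cav1* was 0.22. *Cav1* was found in all *Fndc1*-high cells, at 12.3 reads per 10000 against 8.28 (log2 ratio 0.57), and *Cav2* was at 4.70 against 3.79. *S1pr1* (4.16 and 3.91) and *Prkg1* (0.158 and 0.149) were near level. The summed level of the 8 mural markers was 0.188 reads per 10000 in *Fndc1*-high cells and 0.0547 in the others. Most of it was *Acta2*, at 0.179 and 0.0377, which was found in 4.23% and 2.14% of these cells. *Pdgfrb* was also higher in *Fndc1*-high cells, whereas *Myh11*, *Tagln*, *Rgs5* and *Cspg4* were lower. *Cnn1* and *Des*, at 0 in every cell, added nothing to this sum. In *Stab2*-high cells and the others this sum was 0.0776 and 0.0770. No cell had 3 or more of these markers, a count that could miss such reads. Their part in the ratios was not tested.

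The *Stab2* and *Fndc1* divisions share cells, so their ratios are not independent, and 29 genes of all those tested were at least 2-fold lower in the first and higher in the second. With the 11 cells in both groups set apart, *Nos3* was found in 24.6% of the cells with *Stab2* only (19.4 to 30.4), 53.4% of those with *Fndc1* only (44.5 to 62.2) and 67.4% of those with neither (62.9 to 71.7). The order was different for the receptor. *Gucy1a3* was found in 7.54% (4.60 to 11.5), 56.5% (47.6 to 65.1) and 21.4% (17.7 to 25.5) of these cells, and *Gucy1b3* in 13.1% (9.19 to 17.9), 62.6% (53.7 to 70.9) and 35.5% (31.1 to 40.1). The mean level of *Nos3* was thus highest in cells with neither marker, at 1.17 reads per 10000, and those of *Gucy1a3* and *Gucy1b3* in cells with *Fndc1* only, at 1.27 and 1.58. Among the 11 cells with both markers, *Gucy1a3* was found in 0 and *Gucy1b3* in 5.

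**Figure D3:**
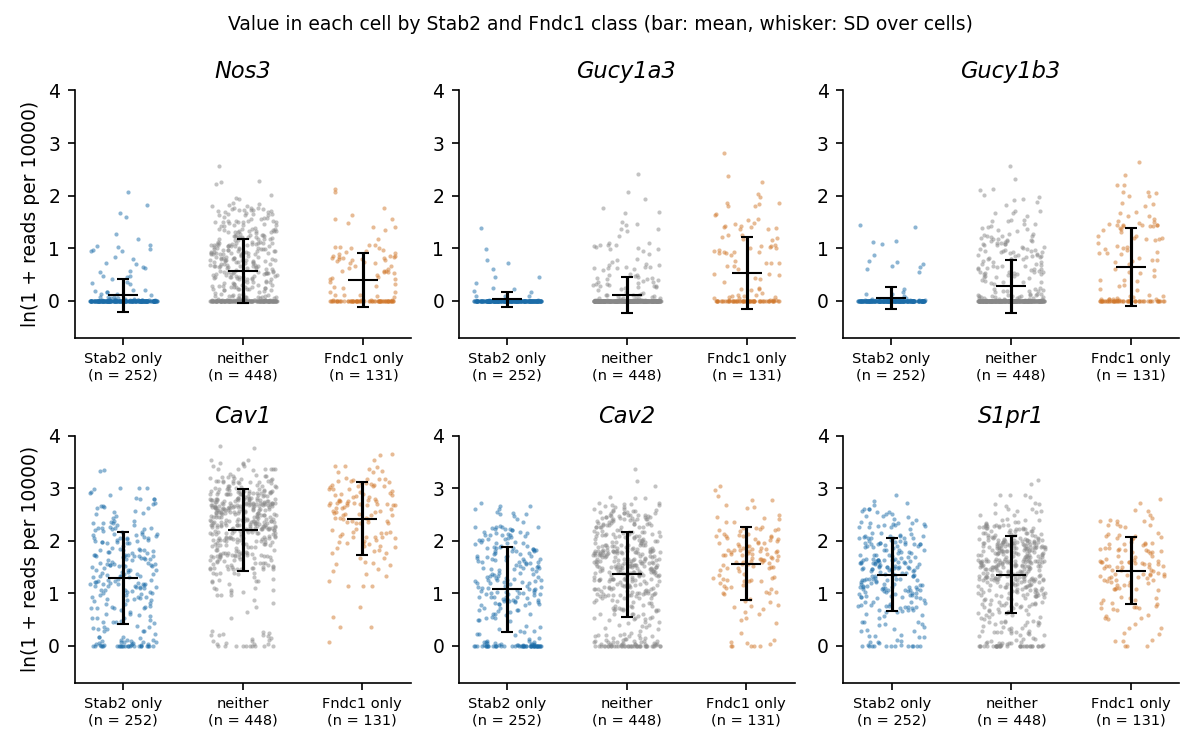
Deposited value, ln(1 + reads per 10000), of 6 genes in each cell (points) with *Stab2* above 1 only (blue), neither marker above 1 (grey) or *Fndc1* above 1 only (orange), where bars are means and whiskers the SD over cells. *Gucy1a3* and *Gucy1b3* were highest in the orange cells, *Nos3* in the grey cells, and *S1pr1* was near level.

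For *Nos3*, *Gucy1a3* and *Gucy1b3*, cells with a little of a marker lay between those without and those above a value of 1, or near the former. For *Stab2* at 0 (42.2% of cells), up to 1 (26.6%) and above 1, *Nos3* had 1.16, 0.933 and 0.197 reads per 10000, *Gucy1a3* 0.591, 0.280 and 0.0404, and *Gucy1b3* 0.806, 0.788 and 0.118. For *Fndc1* at 0 (61.9% of cells), up to 1 (21.3%) and above 1, *Gucy1a3* had 0.151, 0.209 and 1.17, and *Gucy1b3* 0.350, 0.533 and 1.52. In plain differences of mean level, the larger step was the one to above 1, except for *Gucy1a3* along *Stab2*. Median reads were highest in the middle step, at 494208 for *Stab2* and 578416 for *Fndc1*.

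**Figure D4:**
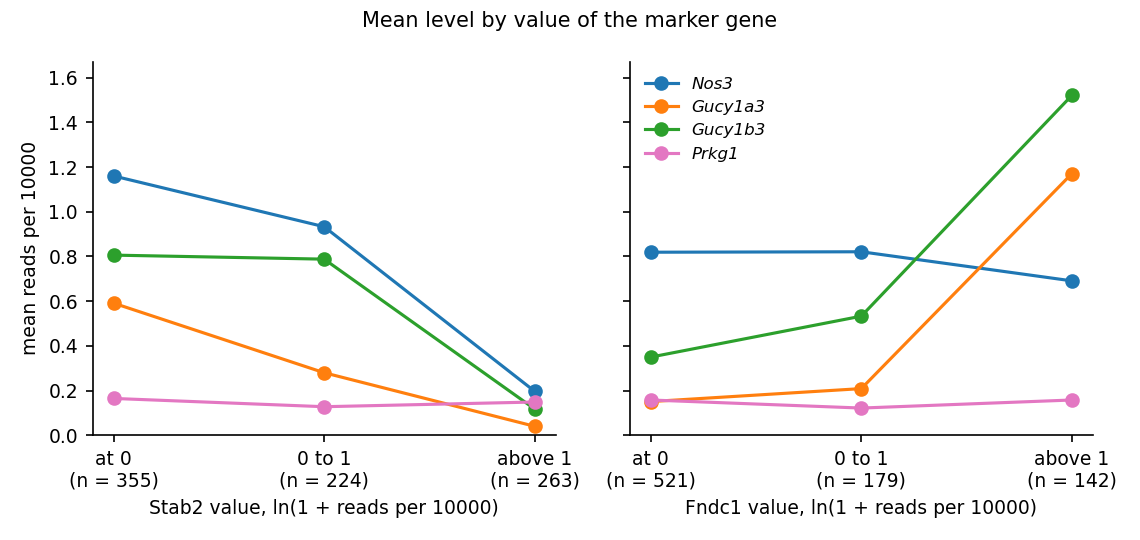
Mean reads per 10000 (y axis) of *Nos3*, *Gucy1a3*, *Gucy1b3* and *Prkg1* in cells grouped by the deposited value of *Stab2* (left) or *Fndc1* (right) into 0, up to 1 and above 1 (x axis). The subunits fell with *Stab2* and rose with *Fndc1*, and *Prkg1* stayed between 0.122 and 0.165.

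The members were also compared by other genes with which the study describes its LECs. In the 48.3% of cells with *Lyve1*, a hyaluronan receptor of initial lymphatics, above 1, *Nos3* had 0.405 reads per 10000 against 1.17 in the other cells (log2 ratio −1.33), whereas *Gucy1a3* (0.487 and 0.195, log2 ratio 0.99) and *Gucy1b3* (0.771 and 0.413, 0.76) were higher without reaching 2-fold. Within the cells with neither *Stab2* nor *Fndc1* above 1, the *Nos3* ratio by *Lyve1* was −1.10, with median reads of 196598 and 381732 in *Lyve1*-high cells and the others. In the 17.7% of cells with *Foxp2*, a transcription factor gene, above 1, *Nos3* was at 1.26 reads per 10000 against 0.698 (log2 ratio 0.77), and within the cells with neither marker its ratio by *Foxp2* was 0.32. By *Cldn11*, a claudin gene, and *Gja4*, a connexin gene, the log2 ratios of *Nos3* were 0.49 and 0.34, or 0.18 and 0.27 within the cells with neither marker. In the 42 cells with *Ptx3*, a pentraxin gene, above 1, the log2 ratios were −1.89 for *Nos3*, −2.12 for *Gucy1a3*, −2.62 for *Gucy1b3* and −1.05 for *Cav1*. In the 10 of these cells with neither marker above 1, which had median reads of 39237, the ratio against the others with neither was −1.93 for *Nos3* and −0.27 for *Cav1*. *Ptx3* was found in 33.8% of *Stab2*-high cells and 13.1% of the others.

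NO synthase and its receptor were found both together and apart. Both subunits were in 12.9% of cells (10.8 to 15.4), which is 57.7% of the cells with *Gucy1a3* and 39.1% of those with *Gucy1b3*. *Gucy1b3* was in 26% of the cells without *Gucy1a3*. After thinning, 48.1% of cells with *Gucy1a3* and 18.6% of those without had *Gucy1b3*. The pair was found in 55 *Fndc1*-high cells (38.7%, 30.7 to 47.3), 4 *Stab2*-high cells (1.52%, 0.416 to 3.85) and 50 cells with neither (11.2%, 8.40 to 14.4).

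Among the cells with both subunits, 59 (54.1%) also had *Nos3*, against 51.4% of the other cells, and after thinning the shares were 40.4% and 36.8%. *Nos3* without either subunit was found in 26.6% of all cells, both subunits without *Nos3* in 5.94%, and none of the 3 genes in 30.8%. In *Fndc1*-high cells these shares were 14.1%, 19.7% and 11.3%. The share with none of the 3 genes depended on depth, at 45.9% after thinning and 19% in the group with most reads. All 3 genes were found in 2.65% and 12.8% of these cells, against 7.01% of all cells. *Nos3* without either subunit was in 24.4% and 23.7%, and both subunits without *Nos3* in 3.92% and 6.16%. A gene not found may have been missed, so no lack of expression is read from these shares. Of the 4 *Stab2*-high cells with both subunits, 0 had *Nos3*. *Cav1* and *Cav2* were found together in 86.9% of cells, which is 90.5% of those with *Cav1* and 97.1% of those with *Cav2*. Each gene was itself in most cells (96.1% and 89.5%), so a high shared figure follows from that alone. *Cav2* was in 66.7% of the 33 cells without *Cav1*.

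Across all cells, rank correlations with all 9654 genes found in at least 10% of cells were computed as a description, since the cells share depth and pooled tissue. The genes most like *Nos3* were *Parm1* (Spearman's rho 0.53, 0.47 after thinning), *Clca3a1* (0.48, 0.44) and *Pkhd1l1* (0.40, 0.35). For *Cav1* they were *Vim*, which encodes the intermediate filament vimentin (0.57, 0.54), the tetraspanin gene *Cd9* (0.50, 0.48) and *Fstl1* (0.49, 0.45). For *Gucy1a3* they were *Pcp4l1* (0.33, 0.33), *Gucy1b3* (0.32, 0.27) and *Fndc1* (0.31, 0.30). For *Gucy1b3* they were *Gucy1a3* (0.32, 0.27), *Cav1* (0.31, 0.26) and *Fndc1* (0.31, 0.27). After thinning *Gucy1b3* ranked 9 for *Gucy1a3*, while *Gucy1a3* ranked 4, *Cav1* 6 and *Fndc1* 1 for *Gucy1b3*. *Cav2* was most like *Cav1* (0.29, 0.27), *Crip2* (0.25, 0.21) and *Ephx1* (0.24, 0.21), which ranked 1, 6 and 8 after thinning. *Nos3* had a rho of 0.02 with *Gucy1a3* and 0.05 with *Gucy1b3*, and 0.29 with *Cav1*. The first values for *S1pr1* (*Tmem109*, 0.18, then *Rbmx* and *Rab11a*) and *Prkg1* (*Gm28661*, 0.19, then *Tcea1* and *Gm40309*) were too low to single out a gene. Counts were sparse for *Prkg1*, where the rho of *Gm28661* was 0.05 after thinning. They were not sparse for *S1pr1*, found in 94.5% of cells, where *Tmem109* still ranked 1 after thinning (0.19).

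Genes of the wider pathway were compared in the same way. In 8 lists around the members 100 genes had a row, and 73 were found in at least 5% of cells. In *Stab2*-high cells 2 of the 73 were at least 2-fold lower and 0 higher, and in *Fndc1*-high cells 0 were lower and 0 higher, with median log2 ratios of 0.00 and −0.05. The background shares of genes this much lower and higher were 1.43% and 1.11% for *Stab2*, and 0.769% and 0.449% for *Fndc1*. With 73 genes, these counts do not set the lists apart from all genes tested.

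The first of the 2 genes was *Ddah1*, which encodes an enzyme that degrades the methylarginine inhibitors of NO synthase, at 0.113 reads per 10000 in *Stab2*-high cells and 0.551 in the others (log2 ratio −1.61). *Ddah2*, its paralog, was at 1.01 and 0.872. The other was *Sphk1*, which encodes a kinase that makes sphingosine 1-phosphate, at 0.360 and 0.956 (log2 ratio −1.20). *Spns2*, the exporter of this lipid, was at 1.05 and 2.10 (−0.93), and *Slc7a1*, an arginine transporter, at 0.296 and 0.651 (−0.92), both under the 2-fold size.

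For synthesis of NO, the genes most often found were *Prmt1*, which makes methylarginines (74% of cells), *Qdpr*, which recycles the cofactor tetrahydrobiopterin (55%), and *Slc7a1* (51%), while *Gch1*, the first enzyme of cofactor synthesis, was in 15.1%. Among partners of the synthase, the HSP90 gene *Hsp90ab1* was found in 99.9% of cells and *Cyb5r3* in 97.4%. Of 7 caveola genes with a row, *Cavin2* was in 99.3% of cells, *Cavin1* in 98.3%, *Ehd2* in 95.1%, *Pacsin2* in 85.6%, *Cavin3* in 85.3%, *Ehd4* in 60.3% and *Ror1* in 1.54%. *Cavin2* had log2 ratios of −0.55 with *Stab2* and 0.72 with *Fndc1*, and *Cavin3* 0.29 and −0.23.

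The other source of cyclic GMP was found in more cells than the NO receptor. *Npr1*, a membrane guanylate cyclase for natriuretic peptides, was found in 70% of cells and *Npr2* in 58.2%, while the other soluble subunits *Gucy1a2* and *Gucy1b2* were in 1.19% and 0.238%. *Npr1* was at 1.56 reads per 10000 in *Stab2*-high cells and 0.863 in the others (log2 ratio 0.78), and at 0.858 and 1.13 by *Fndc1* (−0.36), the opposite signs to *Gucy1a3* and *Gucy1b3* but under the 2-fold size.

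Among effectors of cyclic GMP, *Itpr1* was found in 83.5% of cells, *Gtf2i* in 74.5% and *Ppp1r12a* in 71.3%, genes with other uses in cells, whereas *Prkg2*, *Mrvi1* and *Kcnma1* were in 0.356%, 1.66% and 1.19%. Of the phosphodiesterases, the cyclic AMP enzymes *Pde4b* (94.9%), *Pde7b* (52.7%) and *Pde8a* (48.6%) were found most often. *Pde10a*, *Pde2a* and *Pde1b*, which cleave both cyclic nucleotides, were in 24.8%, 11% and 9.50%. *Pde7b* had log2 ratios of 0.99 with *Stab2* and −0.73 with *Fndc1*. In the sphingosine 1-phosphate list *Gnai2* (99.2%), *Plpp1* (90.5%) and *Spns2* (75.4%) led, and the receptors other than *S1pr1* reached at most 10.5% (*S1pr4*). The shear-linked genes *Flt4* (99.8%), *Pecam1* (99.6%) and *Cdh5* (99.2%) led their list. *Klf2* and *Klf4*, transcription factors induced by flow that raise *Nos3* in blood endothelium, were in 87.5% and 97.9% of cells with log2 ratios between −0.07 and −0.02 in both divisions.

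**Figure D5:**
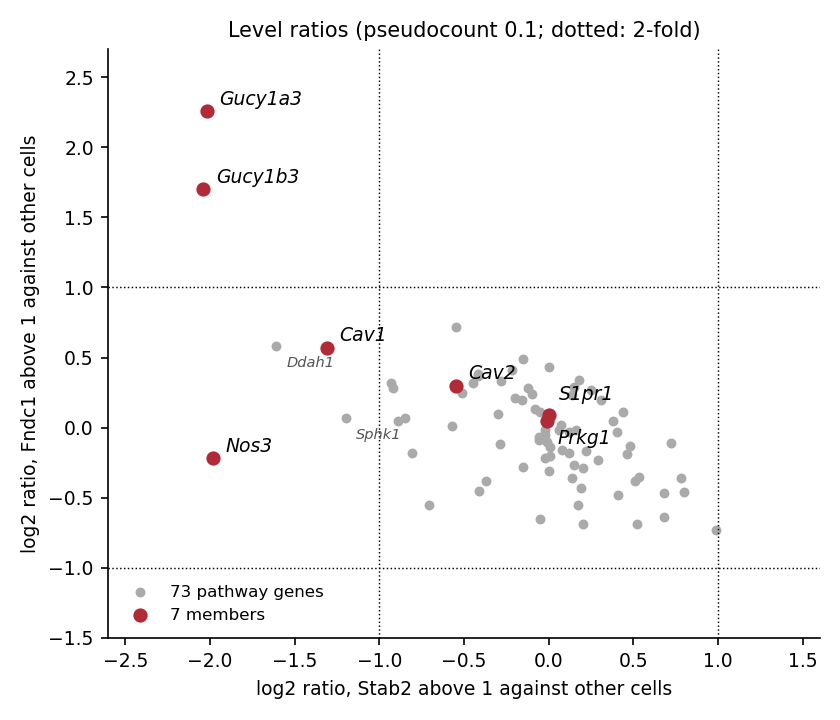
Log2 ratio of mean reads per 10000 plus 0.1 for cells with *Stab2* above 1 (x axis) and *Fndc1* above 1 (y axis), each against the other cells, for 7 members (red) and 73 pathway genes (grey), with dotted lines at 2-fold. *Gucy1a3* and *Gucy1b3* lie at the upper left, *Nos3* at the left near 0 on the y axis, and *S1pr1* and *Prkg1* near the origin.

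Reads of other cell types moved with the divisions in places, and their part in the results was not tested. The blood endothelial markers summed to 4.20 reads per 10000 in *Stab2*-high cells and 1.98 in the others, and to 1.22 and 2.97 by *Fndc1*, led by *Plvap* (77.8% of cells, log2 ratios 1.32 and −1.43), which LECs can also express. Of the other markers in this list, *Cd34* was in 28.9% of cells, *Vwf* in 5.11% and *Sox17* in 4.99%, and *Flt1*, *Ly6c1* and *Esm1* were each in at most 2.49%. At least 3 of these markers were found in 33 cells, of which 24 were *Stab2*-high and 0 *Fndc1*-high. *Sox17* was at 0.0914 reads per 10000 in *Stab2*-high cells and 0.00419 in the others. *Cd34*, *Ly6c1* and *Esm1* were also higher in *Stab2*-high cells. *Vwf* (0.0367 and 0.126, log2 ratio −0.73) and *Flt1* (0.0156 and 0.0263) went the other way. Most of the summed level came from *Plvap*, at 3.35 and 1.28. Immune markers summed to 0.368 and 0.945 by *Stab2* and 0.275 and 0.864 by *Fndc1*, with *Cd68* (15.7% of cells) the most often found. *Ptprc* and *Cd3e* were at 0 in every cell, from which no lack of expression is read. The lysozyme gene *Lyz2*, in 7.96% of cells, was at 0.112 and 0.627 reads per 10000 by *Stab2* (log2 ratio −1.78) and 0.0724 and 0.546 by *Fndc1* (−1.91), while *Cd68* was at 0.239 and 0.229 by *Stab2*. Fibroblast markers, led by *Dcn* (12.4%), summed to 0.295 and 0.458, and 0.0983 and 0.470. Epithelial (*Krt18*, 0.831%) and platelet (*Itga2b*, 3.21%) markers summed to at most 0.0746 in any of the 4 groups. The myelin gene *Mbp*, a Schwann cell marker found in 11 cells, was at 0.0956 reads per 10000 in *Stab2*-high cells and 0.00538 in the others. Immediate early genes, led by *Fos* (99.8%) and known to rise on dissociation, had 0 of 12 members past 2-fold in either division. Of all genes tested, 1.43% were that much lower and 1.11% higher by *Stab2*, and 0.769% and 0.449% by *Fndc1*. With 12 genes, this count does not set the list apart from all genes tested. The median log2 ratios were −0.23 by *Stab2* and −0.12 by *Fndc1*. The median over cells of their summed level was lower in *Stab2*-high and in *Fndc1*-high cells than in the respective other cells. The part of dissociation in the ratios was not tested.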

How the data were processed

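Smart-seq3 libraries came from 1536 wells. The authors used STAR for alignment to mm10 and featureCounts (Subread) for gene counts, removed cells with fewer than 2000 genes or more than 10% mitochondrial reads, and normalized with Seurat (4.1.0 in the submitters' processing notes). Strand and multi-mapping settings are not given in the sources used here. The deposited matrix holds natural log values, ln(1 + reads per 10000). The methods name a log2 step, but the exponential minus 1 summed to 10000 in all 842 cells. Whole reads were recovered from 100% of values above 0 (within 0.01). No source used here states that molecular identifiers were counted. No doublet caller was run on these sorted wells.

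Genes found in at least 5% of cells (11573) were compared by log2 ratio, with no test since the cells are 1 sample. *Stab2* was above 1 in 263 cells, *Fndc1* in 142 and neither in 448 (252 *Stab2* only, 131 *Fndc1* only, 11 both). Thinning kept 791 cells. Genes named were the 8 members, up to 3 genes of each pathway list found in most cells, those past 2-fold, the most often found gene of each marker list and the 3 genes most like each member. *Slc7a1*, *Spns2*, *Npr1*, *Pde7b*, *Klf2* and other genes outside this rule were chosen after their values were seen, and some that the rule names are not reported here. The members and lists were chosen with earlier results of these data known. Symbols were matched to GENCODE M21 (22367, 96.5%). The ratio was tested on simulated reads with the same spread between cells for every gene. That spread was not matched to unevenly spread genes such as *Gucy1a3*, so the simulation does not cover them. Alternatives changed the pseudocount, marker threshold, pooling, depth and cells. Python 3.11.15, NumPy 2.4.6, pandas 2.3.3, SciPy 1.17.1 and matplotlib 3.10.9 were used.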

Additional observations from a re-analysis of the deposited data

How the results depend on the processing

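There were 140 member ratios under alternatives, 10 for each member and division. Only the 4 *Stab2* and 2 *Fndc1* ratios past 2-fold could fall under it. Of the alternatives to these, 8 fell under the 2-fold size, the rest stayed past it and 0 changed sign. The other member ratios began under 2-fold and stayed there. With a pseudocount of 1, *Stab2* ratios were −0.79 (*Nos3*), −0.50 (*Gucy1a3*) and −0.69 (*Gucy1b3*), and *Fndc1* ratios 0.90 (*Gucy1a3*) and 0.85 (*Gucy1b3*). A larger pseudocount shrinks ratios of genes with levels below it. With any *Stab2* read as the division, the ratios were −0.99 (*Nos3*), −0.78 (*Gucy1b3*) and −0.62 (*Cav1*), and the cause was not tested. Genes at least 2-fold higher and lower made up 0.138% and 0.277% (*Stab2*) and 0.104% and 0.0778% (*Fndc1*) of those tested with a pseudocount of 1. With 0.01 these were 3.51% and 3.50%, and 1.87% and 4.64%, and with any marker read 0.458% and 0.302%, and 0.199% and 0.190%. Counting only values above 1 as found gave 17% (*Nos3*), 6.77% (*Gucy1a3*), 12.4% (*Gucy1b3*), 84.1% (*Cav1*), 66.6% (*Cav2*), 72.3% (*S1pr1*) and 1.78% (*Prkg1*), and thinning gave 37%, 13.7%, 22.6%, 91.2%, 82.2%, 88.6% and 14.5% in that order. In cells with at least 3000 genes, the shares outside the first interval were 55.8% (*Nos3*), 97.8% (*Cav1*), 92.3% (*Cav2*), 97.3% (*S1pr1*) and 36.6% (*Prkg1*). The alternative without cells with 3 or more mural markers removed 0 cells, so it could not change any ratio. Comparisons against cells with neither marker and within the cells with fewer or more reads were chosen after seeing the data, and gave *Stab2* ratios of −1.80 to −2.22 for *Nos3*, −1.26 to −2.6 for *Gucy1a3*, −1.62 to −2.43 for *Gucy1b3* and −1.14 to −1.47 for *Cav1*, and *Fndc1* ratios of 1.92 to 2.28 for *Gucy1a3* and 1.27 to 2 for *Gucy1b3*. No paired analysis was possible because the cells form 1 group. Mice and plates could not be separated, and depth limits the shares of *Nos3*, *Prkg1* and the cyclase subunits.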
